A study of Mus musculus with 6 samples.

Results

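The chemokine system was examined in cardiac macrophages labelled Lgmn KO (knockout of the legumain gene) or WT. It was followed through 35 named genes, 23 chemokines and 12 chemokine receptors, of the 34745 genes in the deposited table. The members were chosen by gene symbol, and each symbol matched 1 row. Messenger RNA had been sequenced from Lgmn KO macrophages (3 libraries, replicates 1, 2 and 4) and WT macrophages (3 libraries, replicates 1, 2 and 3). All mice were C57BL/6, 8 weeks old, and per the series design all samples were taken after myocardial infarction. The labels name both coronary ligation and sham surgery without assigning them to animals, and give neither the time after surgery nor the allele behind the knockout. Cells came from digested hearts stained for CD45, CD64 and CD11b, and the labels do not separate resident from recruited macrophages. The labels do not state that each library is a separate animal, and the p-values then reflect differences among libraries that may be technical.

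Chemokines are small secreted proteins that guide leukocytes by binding receptors coupled to G proteins. CC and CXC chemokines are named for the spacing of their first conserved cysteines. After an infarct, Ccr2 and its ligands bring monocytes into the heart, Cxcr2 and its ligands bring neutrophils, and Cxcr3 ligands, induced by interferon-gamma, attract T cells. Macrophages are both a source and a target of these signals.

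Library totals lay between 19546253 and 24086976 counts. Lgmn itself was at 83.5 ± 4.90 CPM in Lgmn KO, against 2390 ± 262 CPM in WT (SD, n = 3 each; CPM are counts scaled to library size after TMM normalisation). The macrophage markers summed to 20170 to 23480 CPM in Lgmn KO, against 21560 to 23250 CPM in WT, and no marker was at 0 in all libraries of a group. Lyz2 and Cd68 carried most of that sum. Of the 9 markers 7 had a negative log2 fold change and 0 passed the test, and for Csf1r, Cd14 and Mertk every Lgmn KO library was below every WT library. Csf1r averaged 549.7 ± 61.8 CPM in Lgmn KO, against 921 ± 218 CPM in WT, and Fcgr1, which encodes the CD64 used in the stain, 95.7 ± 24.2 CPM in Lgmn KO, against 203 ± 99.6 CPM in WT with overlapping groups (SD, n = 3 each). The part of these markers in the results that follow was not tested. WT replicate 2 stood farthest out on the first principal component, at 42.5 against 11.7 and 25.4 for the other WT libraries and -39.5 to -19.2 for Lgmn KO. It was also the highest WT library for 16 of the 26 members tested, against 36.7% of all 12546 tested genes. Results are therefore also given without it where they move.

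Of the 35 members, 26 had enough counts to be tested, and 3 fell in Lgmn KO while 0 rose (edgeR's quasi-likelihood test over all 12546 genes, Benjamini-Hochberg adjusted p below 0.05). The 3 were Ccl9, Cxcl9 and Cxcl16. Across all tested genes 0.478% were called lower and 0.311% higher. At an unadjusted p below 0.05 there were 16 members lower, where all genes gave 10.6%, and 1 member higher, where all genes gave 6.9%. DESeq2's Wald test called 14 members lower and 1 higher, with 3.64% and 2.02% of all genes. Limma voom with sample weights called 8 lower and 0 higher, beside 1.76% and 0.949% of all genes, and edgeR with no filter on low counts called 11 lower and 0 higher, beside 1.25% and 0.477%. The median log2 fold change (Lgmn KO over WT) was -1.22 over the 26 tested members and -0.0021 over all tested genes. Without WT replicate 2 the members' median was -0.526 and 1 member was called lower, beside 23 of all 12737 tested genes. Without WT replicate 1, 12 of 28 tested members were called lower, beside 470 of all 12802 tested genes. Without Lgmn KO replicate 1, 2 or 4 or WT replicate 3 there were 0. In those fits 12 of 12847, 3 of 12807, 14 of 12814 and 7 of 12759 tested genes were called lower. The number of members called thus moved along with the number of all genes called. Of the tested members, 4 (Ccl8, Cxcl3, Cxcl9 and Cxcl10) reached the count filter in all 3 WT libraries but not in all 3 Lgmn KO libraries. Cxcl3 reached it in 2 Lgmn KO libraries, Ccl8 in 1, and Cxcl9 and Cxcl10 in 0. Cxcl9 and Cxcl10 could therefore only be lower in Lgmn KO. For this reason these counts and medians describe the members and support nothing further. In bulk libraries fewer cells of a type and less RNA per cell cannot be told apart.

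**Figure D1:**
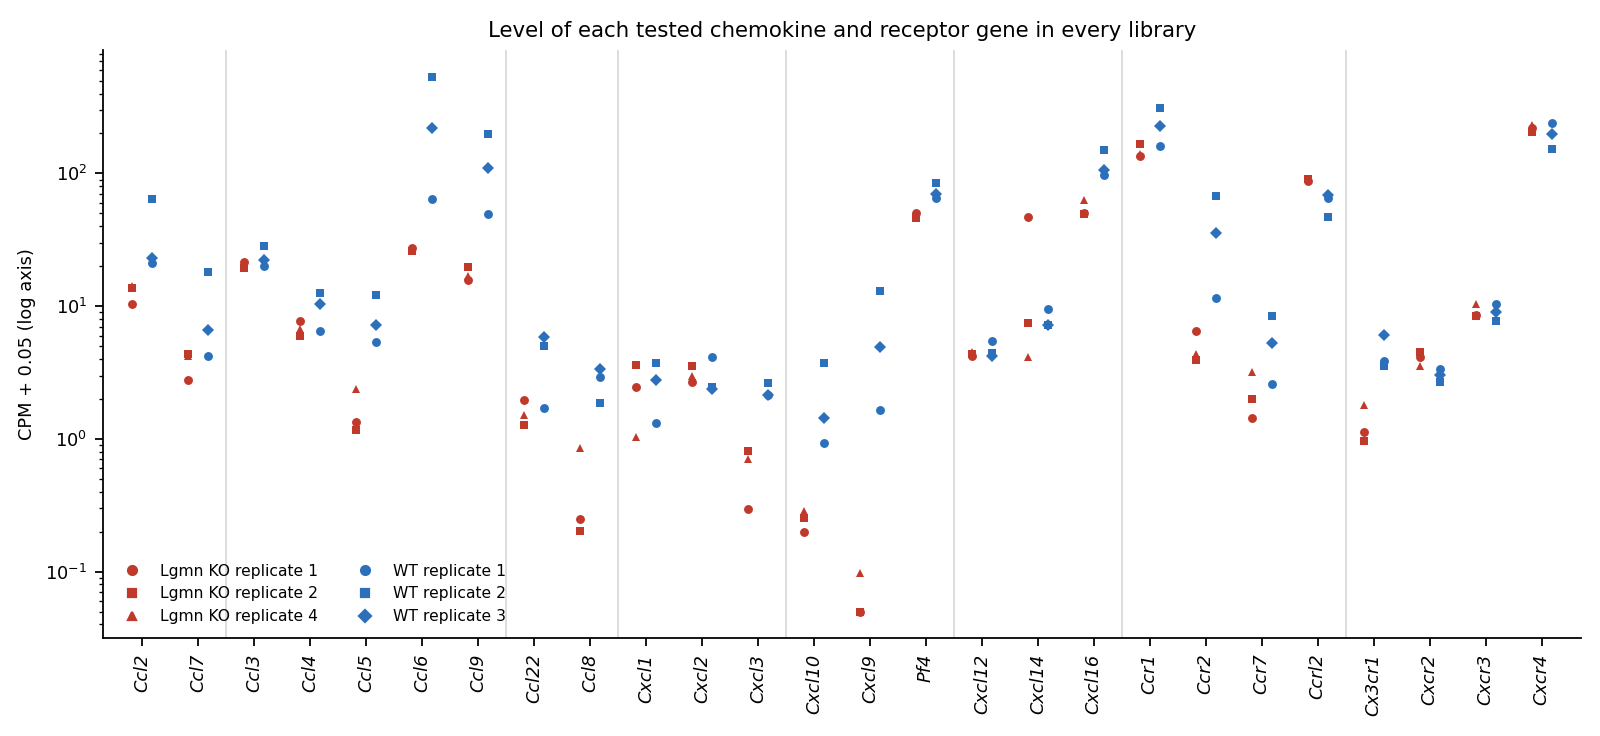
CPM plus 0.05 on a log axis for the 26 tested members, grouped by role between grey lines, with Lgmn KO libraries in red left of WT libraries in blue and 1 point per library. For Ccl6 the Lgmn KO points lie together at 25.9 to 27.2 CPM, whereas the WT points spread over 64.0 to 534 CPM.

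Every ligand group held at least 1 member with all Lgmn KO libraries below WT, and the receptors went in both directions. Of the 26 tested members 20 were negative in log2 fold change, a sign shared by 50.4% of all tested genes. Among 18 tested ligands 16 were negative, and the median of the 18 was -1.40. Of these, Cxcl9 and Cxcl10 passed the count filter through WT alone and could only be negative. Ccl8 and Cxcl3 reached that filter in fewer Lgmn KO than WT libraries. Of 8 tested receptors, 4 were negative and 4 positive, with a median of -0.33. Summed over all 23 ligands, Lgmn KO libraries held 246, 208 and 218 CPM and WT libraries 363, 1148 and 612 CPM. Summed over all 12 receptors the values were 464, 480.3 and 486 CPM in Lgmn KO, against 496, 604 and 559 CPM in WT. Neither sum overlapped between the groups, and the gap was far wider for the ligands. Counting all 35 members, 14 had every Lgmn KO library below every WT library and 2 had the opposite. Among the 26 tested members 12 and 2 did so, where the shares of all tested genes were 12.9% and 10.7%.

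**Figure D2:**
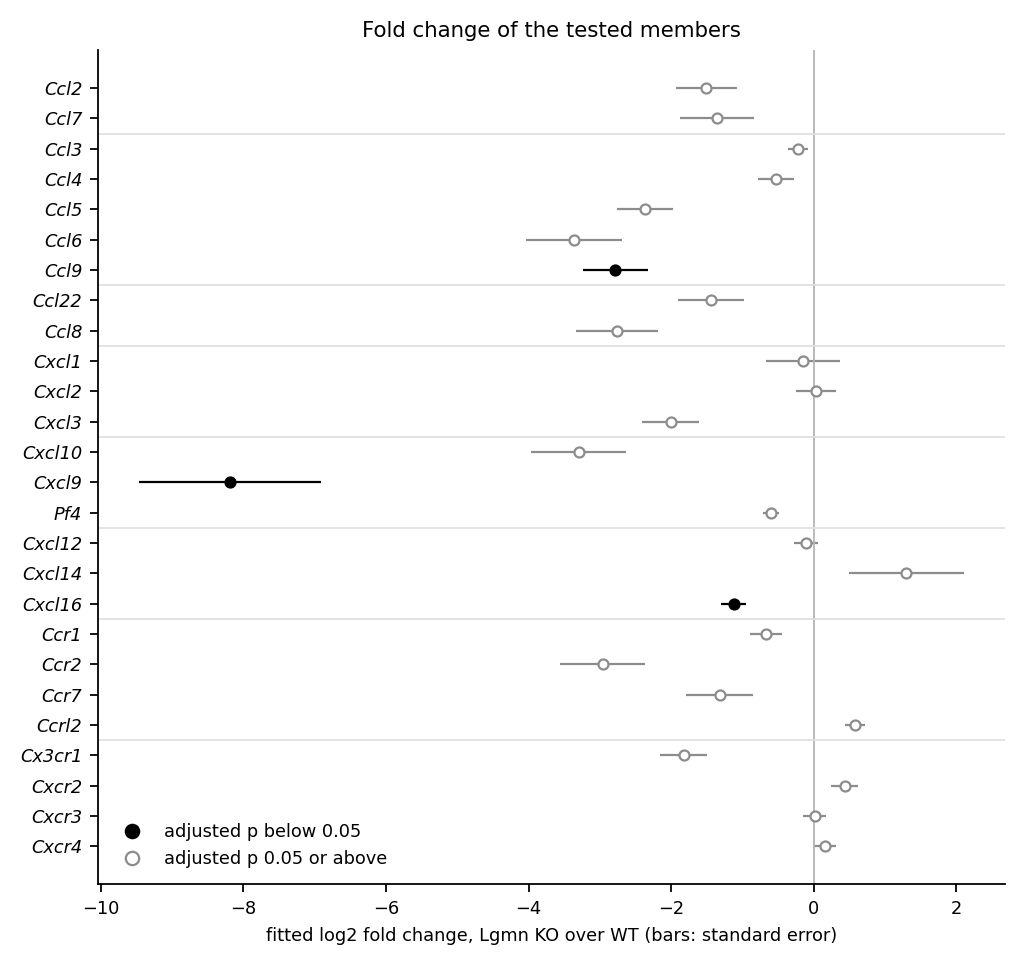
Fitted log2 fold change (Lgmn KO over WT) of the 26 tested members, ordered by role, with bars of 1 standard error and filled points where the adjusted p was below 0.05. Ccl9, Cxcl9 and Cxcl16 are filled, and 6 members lie to the right of 0.

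The ligands of Ccr1, the receptor that several inflammatory CC chemokines share, held 1 called member, Ccl9. Ccl9, a rodent chemokine that attracts myeloid cells through Ccr1, was at 15.6, 19.8 and 16.7 CPM in Lgmn KO, against 49.8, 199 and 110.2 CPM in WT. Every Lgmn KO library was below every WT library, and the WT libraries were far more spread out than the Lgmn KO libraries. Ccl9 fell 6.89-fold, a log2 fold change of -2.78 (standard error 0.46, adjusted p = 0.0486, edgeR). It kept its call without WT replicate 1 (adjusted p = 0.00412) and lost it without any other library (adjusted p = 0.064 to 0.178). Without WT replicate 2 its log2 fold change was -2.21. Ccl6, its close relative in rodents, was at 27.2, 25.9 and 26.5 CPM in Lgmn KO, against 64.0, 534 and 221 CPM in WT. The Lgmn KO libraries thus had a coefficient of variation of 2.51% and the WT libraries 87.7%. The log2 fold change of Ccl6 was -3.36 with a standard error of 0.67, short of the threshold at an adjusted p of 0.0726, and -2.42 without WT replicate 2.

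Ccl5, a chemokine of T cells and of activated macrophages, was at 1.28, 1.12 and 2.31 CPM in Lgmn KO, against 5.30, 12.1 and 7.13 CPM in WT. The groups did not overlap, and the adjusted p was 0.0502 for a log2 fold change of -2.37. The 18 markers of these cells other than Il7r summed to 7.74, 9.50 and 7.21 CPM in Lgmn KO, against 13.5, 23.5 and 20.5 CPM in WT, with 7 of them at 0 in all Lgmn KO libraries (Trbc2, Cd8a, Cd8b1, Nkg7, Gzma, Gzmb and Ncr1) and 1 (Ncr1) in all WT libraries. Lat held most of that sum in Lgmn KO, at 6.66, 7.41 and 5.465 CPM, against 7.005, 4.765 and 6.38 CPM in WT, with overlapping groups. Il7r was left out of that sum after its values were seen, because it held 1130 to 1360 CPM in Lgmn KO, against 815 to 1050 CPM in WT. Of all 19 markers, 12 had every Lgmn KO library below WT and 1 (Il7r) had every one above. Among all tested genes 12.9% and 10.7% did so. Only 6 of the 19 had enough counts to be tested. Trac, the constant part of the T cell receptor alpha chain, was the 1 marker of this list that fell, to 0.066 ± 0.031 CPM in Lgmn KO, against 0.989 ± 0.382 CPM in WT (mean and SD of 3 libraries each, edgeR adjusted p = 0.0465). Trac passed the count filter through its WT libraries alone and so could only be lower in Lgmn KO. The part of T and NK cells in the Ccl5 difference was not tested. Ccl3 and Ccl4, the macrophage inflammatory proteins, did not follow their neighbours. Ccl3 was at 21.5, 19.4 and 19.3 CPM in Lgmn KO, against 20.04, 28.2 and 22.2 CPM in WT. Its log2 fold change was -0.23 (standard error 0.14, adjusted p = 0.457, edgeR). Ccl4 was at 7.74, 5.87 and 6.64 CPM in Lgmn KO, against 6.42, 12.6 and 10.3 CPM in WT, overlapping as well (log2 fold change -0.53).

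These 5 genes are neighbours on mouse chromosome 11, within 138.9 kb (GRCm38 positions 83525778 to 83664683), in the order Ccl5, Ccl9, Ccl6, Ccl3 and Ccl4. Ccl9 lies at 83572919 to 83578636 and Ccl6 at 83587882 to 83593087, both protein coding and on the minus strand. Ccl3, at 83647844 to 83649355, lies 54.8 kb beyond the end of Ccl6. The ratio of Ccl6 to Ccl3 CPM within a library was 1.27, 1.34 and 1.37 in Lgmn KO, against 3.19, 18.9 and 9.93 in WT. The ratio of Ccl9 to Ccl3 was 0.727, 1.02 and 0.863 in Lgmn KO, against 2.49, 7.04 and 4.96 in WT. Both pairs were picked after their values were seen and were not tested. Within this stretch of the genome the members therefore ran from no clear difference at Ccl3 to a 10.3-fold fitted difference at Ccl6.

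**Figure D3:**
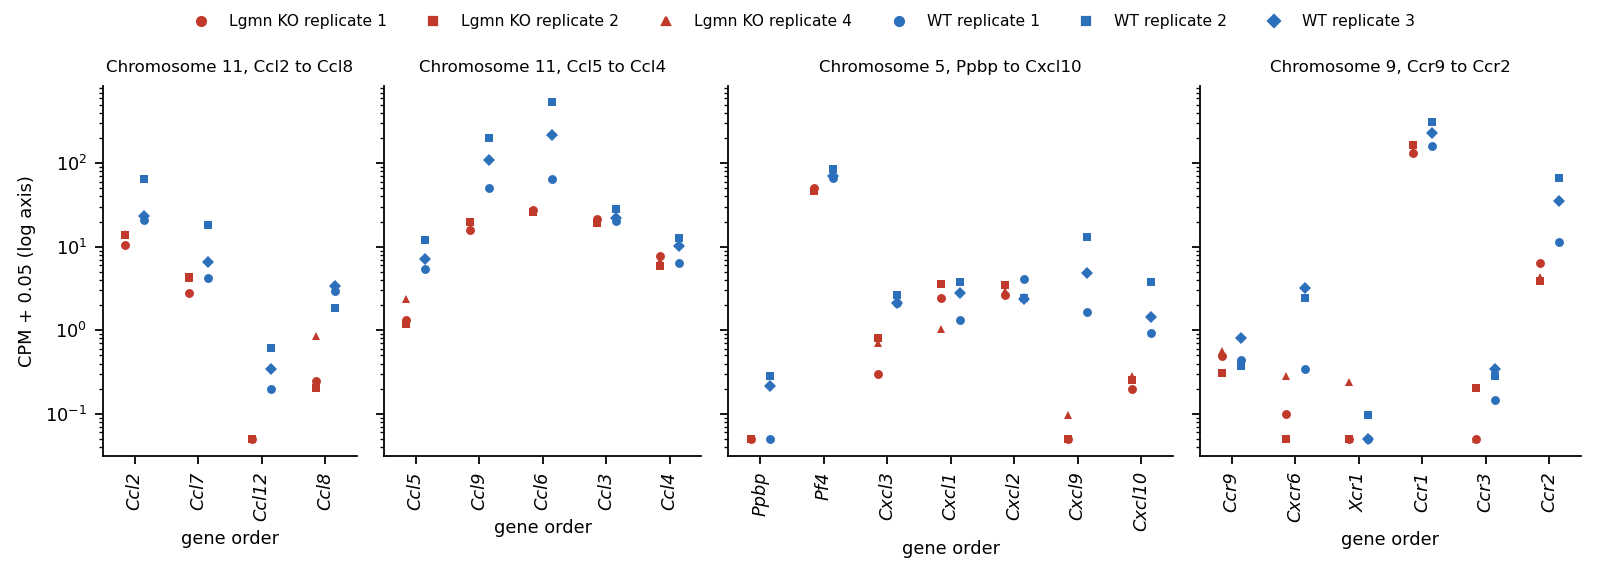
CPM plus 0.05 on a log axis for members that are neighbours on chromosomes 11, 5 and 9, in gene order with no distances drawn, with Lgmn KO libraries in red left of WT libraries in blue. On chromosome 11 the groups part at Ccl2, Ccl12, Ccl8, Ccl5, Ccl9 and Ccl6 and overlap at Ccl7, Ccl3 and Ccl4. On chromosome 9 they part at Cxcr6 and Ccr2 and overlap at the 4 other receptors.

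The bases before the start sites of Ccl9 and Cxcl9, which were called, are shown because the promoters of inflammatory chemokines carry sites for the factors that induce them. RefSeq's table (GRCm38.p6) matched 28 of the 35 members and gave 1 start site each for Ccl9 and Cxcl9. It had no entry for Cxcl16, the other called member. Each line gives the 250 bases that end just before the start site, 5′ to 3′ on the minus strand, with motif matches in capitals. Ccl9 is chr11:83578637-83578886 and Cxcl9 is chr5:92328080-92328329.
Ccl9: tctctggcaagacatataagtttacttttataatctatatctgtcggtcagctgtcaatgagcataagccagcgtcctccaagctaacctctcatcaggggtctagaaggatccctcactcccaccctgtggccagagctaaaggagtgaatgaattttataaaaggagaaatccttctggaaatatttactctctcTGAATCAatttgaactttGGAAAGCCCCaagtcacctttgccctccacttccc
Cxcl9: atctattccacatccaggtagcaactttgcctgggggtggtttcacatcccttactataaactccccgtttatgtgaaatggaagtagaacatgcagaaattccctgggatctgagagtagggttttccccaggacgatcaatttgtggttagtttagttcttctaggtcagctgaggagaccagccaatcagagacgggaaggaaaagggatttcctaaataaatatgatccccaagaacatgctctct
The capitals in Ccl9 mark a match to the AP-1 motif (TGANTCA) that starts 53 bases before the start site, and a match to the NF-kB consensus that starts 35 bases before it; the matches do not overlap. Both strands were searched for these motifs and for the interferon motifs ISRE core (GAAA, any 2 bases, GAAA) and GAS (TTCNNNGAA). No letters of the Cxcl9 window matched any of the 4. Binding sites spelled otherwise than these motifs would not have been found. In the counts that follow, a member was counted if any of its listed promoters matched. The percentages are of single promoters, so the counts and percentages are unlike measures. The NF-kB consensus was found in 7 of the 28 members (Ccl9, Ccr3, Ccrl2, Cxcl1, Cxcl2, Cxcl3 and Cxcl10) and in 3.9% of all 32851 promoters of the same length. AP-1 was found in 4 members (Ccl9, Ccr3, Cxcl10 and Ppbp), against 6.7% of all promoters. The ISRE core was found in 2 members (Cxcl10 and Cxcl14) and 3.0% of promoters, and GAS in 2 (Ccl17 and Cxcl14) and 7.0%. Of the 7 members with an NF-kB match, Ccl9 fell, Cxcl3 and Cxcl10 had every Lgmn KO library below WT without passing the test, Ccrl2 had every Lgmn KO library above WT, and Cxcl1, Cxcl2 and Ccr3 had overlapping groups.

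The Ccr2 ligands, which recruit monocytes, had negative log2 fold changes that did not pass the test. Ccl2, also called MCP-1, was at 10.3, 13.7 and 14.04 CPM in Lgmn KO, against 21.06, 63.9 and 23.0 CPM in WT. The groups did not overlap, but WT replicate 2 held far more than the other WT libraries, and the log2 fold change of -1.50 (adjusted p = 0.138, edgeR) was -0.80 without it. Ccl7, another monocyte chemoattractant, was at 2.71, 4.34 and 4.19 CPM in Lgmn KO, against 4.18, 18.1 and 6.59 CPM in WT. Its groups overlapped, and its log2 fold change of -1.36 was -0.526 without WT replicate 2. Ccl12, a mouse chemokine of the same group, had 0 counts in every Lgmn KO library and 3, 12 and 7 counts in WT. Taking 3 counts over the Lgmn KO libraries as the limit of detection, it was at least 6.77-fold lower in Lgmn KO. It was too low to be tested.

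Ccr2 itself, the receptor that lets monocytes leave the bone marrow and enter the infarct, was at 6.41, 3.88 and 4.34 CPM in Lgmn KO, against 11.4, 67.2 and 35.6 CPM in WT. Every Lgmn KO library was below the lowest WT library, and its log2 fold change was -2.96 (standard error 0.60, adjusted p = 0.0727, edgeR) and -2.27 without WT replicate 2. The 9 monocyte markers summed to 715, 661 and 669 CPM in Lgmn KO, against 671, 952 and 750.0 CPM in WT, so that sum overlapped, and none was at 0 in either group. Chil3 and F10 carried most of it. Of the 8 markers tested 7 were negative in log2 fold change and the median was -0.95. For Ly6c2, Ly6i, Hp and Itgal every Lgmn KO library was below every WT library, as for Ccr2. Ly6i fell to 0.326 ± 0.044 CPM in Lgmn KO, against 4.36 ± 2.14 CPM in WT (mean and SD of 3 libraries each, edgeR adjusted p = 0.0251). It passed the count filter through its WT libraries alone, so Ly6i could only be lower in Lgmn KO. Itgal fell to 34.9 ± 2.02 CPM in Lgmn KO, against 87.7 ± 19.6 CPM in WT (adjusted p = 0.0224 by edgeR). The part of monocytes in the Ccr2 difference was not tested.

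Cxcl9, a Cxcr3 ligand, had the largest fitted fold change of the 26 tested members. It had 0, 0 and 1 counts in Lgmn KO, against 33, 280 and 116 counts in WT, which is 1.61, 12.95 and 4.84 CPM in WT. A count of 0 allows up to 0.148 CPM in Lgmn KO replicate 1 and 0.153 CPM in Lgmn KO replicate 2. The summed counts gave a ratio of WT to Lgmn KO of 396, with a 95% exact interval of 70.7 to 15700 for counting error only, and WT replicate 2 held 280 of the 429 WT counts. The fitted log2 fold change was -8.18, and it was -7.19 without WT replicate 2 and -10.1 without Lgmn KO replicate 4. Cxcl9 fell by edgeR's test (adjusted p = 0.0446), a call that held without WT replicate 1 (0.00611) or WT replicate 2 (0.048) and was lost without any other library (0.126 to 0.179). The gene lies on chromosome 5 at 92321347 to 92328079 on the minus strand. Cxcl10, 18.6 kb further along and also induced by interferons, had 3, 4 and 5 counts in Lgmn KO, against 18, 80 and 33 counts in WT. That is 0.148, 0.204 and 0.236 CPM in Lgmn KO, against 0.876, 3.70 and 1.38 CPM in WT, with groups that did not overlap (log2 fold change -3.30, adjusted p = 0.0727, edgeR; -2.49 without WT replicate 2). The ratio of Cxcl9 to Cxcl10 CPM within a library, a pair picked after its values were seen, was 0, 0 and 0.2 in Lgmn KO, against 1.83, 3.50 and 3.52 in WT.

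Pf4, platelet factor 4, is set with this group because a variant of CXCR3 binds it in humans; macrophages also make it. It was far more abundant than Cxcl9 or Cxcl10 per length of transcript, at 35.6 ± 1.50 FPKM in Lgmn KO, against 54.3 ± 7.10 FPKM in WT (SD, n = 3 each). In CPM it was at 50.2, 45.97 and 49.5 in Lgmn KO, against 65.6, 84.98 and 70.02 in WT. The groups did not overlap and were tight, yet the log2 fold change of -0.60 (standard error 0.11) missed the threshold (adjusted p = 0.0555, edgeR). The platelet markers summed to 3.78 to 4.38 CPM in Lgmn KO, against 2.68 to 5.17 CPM in WT, with Gp9, Gp1ba and Gp6 at 0 in all 6 libraries. Cxcr3, the receptor of the group, did not differ detectably. It was at 8.48, 8.43 and 10.3 CPM in Lgmn KO, against 10.4, 7.68 and 8.96 CPM in WT (log2 fold change 0.01 with a standard error of 0.16).

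Cxcl16 is made as a membrane protein that serves both as a scavenger receptor for oxidised lipids and, once shed, as the ligand of Cxcr6. It was at 50.01, 49.2 and 62.7 CPM in Lgmn KO, against 96.8, 150.0 and 106.7 CPM in WT. The groups were well apart, and Cxcl16 fell 2.18-fold, a log2 fold change of -1.13 (standard error 0.18, adjusted p = 0.0465, edgeR). Its call held without WT replicate 1 (0.0143) and was lost without any other library (0.0585 to 0.178); without WT replicate 2 the log2 fold change was -0.915. The gene lies on chromosome 11 at 70453983 to 70459984 on the minus strand, far from the other chemokines. Exons of Zmynd15 on the opposite strand cover 18.3% of its exonic bases. Zmynd15 was at 6.61, 4.14 and 5.80 CPM in Lgmn KO, against 9.24, 12.6 and 10.2 CPM in WT, and the sources used here do not say whether reads were counted by strand. Cxcr6, the receptor, had 1, 0 and 5 counts in Lgmn KO, against 6, 51 and 75 counts in WT. These groups did not overlap either, but Cxcr6 was too low in WT replicate 1 to be tested, and with no filter on low counts its adjusted p was 0.064 by edgeR. DESeq2, which did test it, called it lower (log2 fold change -4.31, adjusted p = 0.00207). Cxcr6 is a receptor of T and NK cells, whose summed markers are given beside Ccl5, and their part in this difference was not tested.

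The other CXC ligands differed from Cxcl16. Cxcl12, the chemokine that retains cells in bone marrow and tissue, was at 4.19, 4.29 and 4.43 CPM in Lgmn KO, against 5.40, 4.35 and 4.17 CPM in WT. Its receptor Cxcr4 was the most abundant member in Lgmn KO, at 219.5, 204 and 231 CPM, and was at 238, 152 and 199 CPM in WT. Neither of this pair differed detectably, with log2 fold changes of -0.11 (standard error 0.17) and 0.15 (standard error 0.15). Cxcl14 was at 46.9, 7.36 and 4.10 CPM in Lgmn KO, against 9.44, 7.22 and 7.13 CPM in WT. A single library, Lgmn KO replicate 1, made the Lgmn KO mean the higher one. The log2 fold change was 1.29 (adjusted p = 0.465, edgeR) and turned to -0.46 without that library. Cxcl13, which attracts B lymphocytes, had 8, 15 and 4 counts in Lgmn KO, against 0, 7 and 0 in WT, too few to be tested.

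Among the Cxcr2 ligands, which attract neutrophils, Cxcl3 alone was lower in every Lgmn KO library. It was at 0.247, 0.766 and 0.660 CPM in Lgmn KO, against 2.09, 2.59 and 2.08 CPM in WT (log2 fold change -2.01, standard error 0.40, adjusted p = 0.0727, edgeR). Cxcl1 was at 2.42, 3.52 and 0.989 CPM in Lgmn KO, against 1.27, 3.70 and 2.71 CPM in WT. Cxcl2 was at 2.61, 3.47 and 2.92 CPM in Lgmn KO, against 4.09, 2.41 and 2.33 CPM in WT. For both of them the groups overlapped and the sign of the log2 fold change (-0.16 and 0.03) turned when single libraries were left out. Cxcl3 shares 3.51% of its 50-base stretches with Cxcl2 and Cxcl2 shares 5.84% with Cxcl3, so a small part of their reads could be split between them. The ratio of Cxcl3 to Cxcl2 CPM, a pair picked after its values were seen, was 0.0943, 0.221 and 0.226 in Lgmn KO, against 0.512, 1.08 and 0.893 in WT. Ppbp, a platelet chemokine, had 0 counts in every Lgmn KO library and 0, 5 and 4 in WT. Cxcr2, their receptor, was at 4.09, 4.495 and 3.49 CPM in Lgmn KO, against 3.31, 2.64 and 3.001 CPM in WT, with each Lgmn KO library above each WT library (log2 fold change 0.43, adjusted p = 0.303, edgeR). The neutrophil markers summed to 269 to 325 CPM in Lgmn KO, against 308 to 453 CPM in WT. Most of that sum was Mmp8 and Csf3r. Mmp8 was at 70.7, 86.2 and 97.15 CPM in Lgmn KO, against 141, 255 and 177.5 CPM in WT. Csf3r was at 178.7, 183 and 209 CPM in Lgmn KO, against 149, 180.7 and 173 CPM in WT. Of the 12 neutrophil markers, 1 (Mmp8) had every Lgmn KO library below WT and 1 (Ltf) had every one above. Of the 5 tested, 3 had a negative log2 fold change. Ly6g had 0, 0 and 2 counts in Lgmn KO and 0 counts in every WT library. The part of neutrophils in these values was not tested.

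The remaining CC ligands were low. Ccl8, which attracts T cells and monocytes, had 4, 3 and 17 counts in Lgmn KO, against 59, 39 and 80 counts in WT. That is 0.197, 0.153 and 0.801 CPM in Lgmn KO, against 2.87, 1.80 and 3.33 CPM in WT, without overlap (log2 fold change -2.76, standard error 0.58, adjusted p = 0.0756, edgeR). Ccl22, which calls regulatory T cells through Ccr4, was at 1.92, 1.23 and 1.46 CPM in Lgmn KO, against 1.65, 4.996 and 5.84 CPM in WT. The value of WT replicate 1 was inside the range of Lgmn KO, and the adjusted p was 0.171. Ccl17, which binds the same receptor, had 1, 0 and 0 counts in Lgmn KO, against 0, 0 and 5 in WT, and Ccl24, an eotaxin, had 3, 9 and 4 counts in Lgmn KO, against 7, 9 and 15 in WT. Neither of this pair could be tested.

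The receptors most abundant per length of transcript were Cxcr4 and Ccr1. Mean FPKM, which scale counts to gene length and library size, were 80.2 ± 4.32 for Cxcr4 and 51.7 ± 6.01 for Ccr1 in Lgmn KO, and 72.9 ± 16.8 for Cxcr4 and 82.9 ± 26.3 for Ccr1 in WT (SD, n = 3 each). Among the ligands Ccl6 had the highest mean in WT, at 107 ± 93.7 FPKM (25.6, 209.5 and 86.3 FPKM by library), and was eighth of all 35 members in Lgmn KO, at 10.4 ± 0.240 FPKM. In WT its spread was so wide that it could not be told from Ccr1, Cxcr4 and Pf4, and in WT replicate 1 it was below Pf4 (49.2 FPKM) and Ccl3 (26.7 FPKM). In Lgmn KO the order began with Cxcr4, Ccr1, Pf4 (35.6 FPKM) and Ccl3 (26.1 ± 1.64 FPKM), and the SDs of these 4 did not overlap. The order ended with Ccl12 and Ppbp, at 0 in Lgmn KO, and with Xcr1 and Ccr9 in WT, at 0.0035 and 0.032 FPKM.

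**Figure D4:**
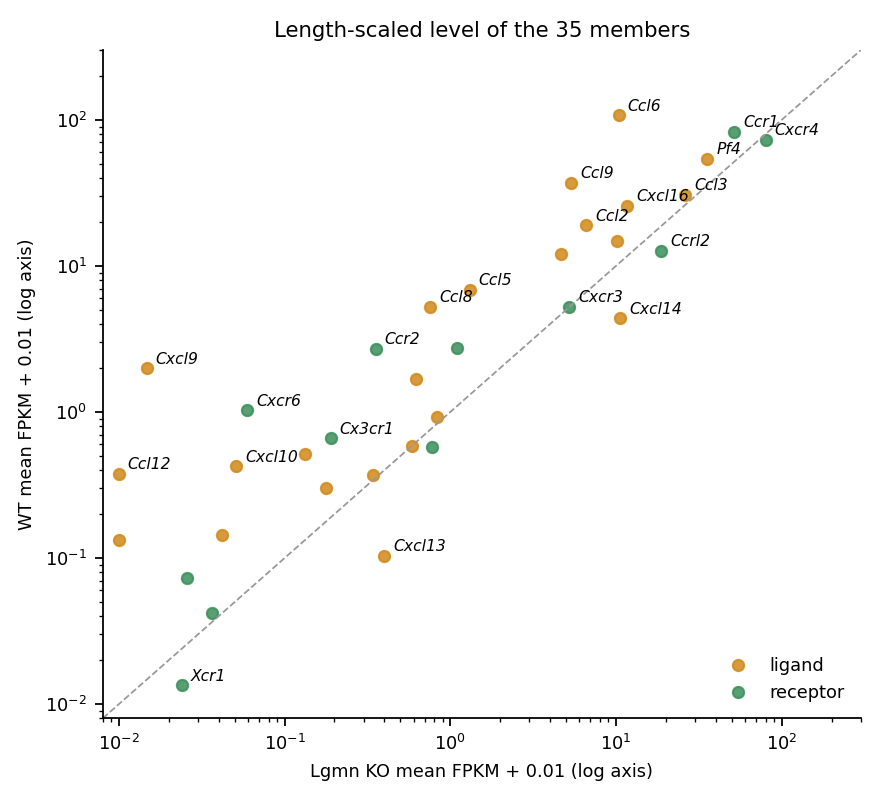
Mean FPKM plus 0.01 of each of the 35 members in Lgmn KO (horizontal log axis) against WT (vertical log axis), with ligands in orange, receptors in green and a dashed line of equality. Ccl6, Ccl9, Ccr2 and Cxcl9 lie well above the line, whereas Ccrl2, Cxcl14 and Cxcl13 lie below it.

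Ccr1 was at 134, 165 and 141 CPM in Lgmn KO, against 161, 313 and 229 CPM in WT. WT replicate 1 was below the highest Lgmn KO library, and the log2 fold change was -0.67 (standard error 0.22, adjusted p = 0.18, edgeR). Within a library the ratio of Ccr2 to Ccr1 CPM, a pair picked after its values were seen, was 0.0477, 0.0235 and 0.0308 in Lgmn KO, against 0.0708, 0.215 and 0.156 in WT. Ccr7, which guides dendritic cells to lymph nodes, was at 1.38, 1.94 and 3.16 CPM in Lgmn KO, against 2.53, 8.42 and 5.25 CPM in WT. The groups overlapped at Lgmn KO replicate 4, and the adjusted p was 0.213. The 12 dendritic cell markers summed to 62.3, 65.5 and 60.02 CPM in Lgmn KO, against 85.9, 118 and 88.2 CPM in WT, mostly from Bst2 and Fscn1. Zbtb46, a transcription factor of conventional dendritic cells, fell to 0.295 ± 0.012 CPM in Lgmn KO, against 1.33 ± 0.073 CPM in WT (mean and SD of 3 libraries each, edgeR adjusted p = 0.041). Zbtb46 too passed the count filter through its WT libraries alone and could only be lower in Lgmn KO. Siglech was at 0 in all 6 libraries and Ffar2 in all Lgmn KO libraries, and the part of dendritic cells in Ccr7 was not tested.

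Ccrl2 was the member that leaned most clearly the other way. It encodes an atypical receptor that holds chemerin at the cell surface without signalling. It was at 88.3, 90.5 and 90.9 CPM in Lgmn KO, against 65.6, 46.5 and 68.2 CPM in WT. The Lgmn KO libraries had a coefficient of variation of 1.58% and all lay above WT, yet the log2 fold change of 0.58 (standard error 0.14) did not pass (adjusted p = 0.0938, edgeR), while DESeq2 called it (adjusted p = 0.00546). Cmklr1, the signalling receptor of chemerin, was at 38.03, 45.3 and 37.1 CPM in Lgmn KO, against 63.3, 108.5 and 86.02 CPM in WT (log2 fold change -1.10, adjusted p = 0.0519, edgeR).

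Cx3cr1, a receptor of resident macrophages and of patrolling monocytes, was at 1.09, 0.919 and 1.74 CPM in Lgmn KO, against 3.79, 3.52 and 6.04 CPM in WT. The groups did not overlap and WT replicate 2 was the lowest WT library here (log2 fold change -1.83, standard error 0.33, adjusted p = 0.0575, edgeR). Its membrane-bound ligand Cx3cl1 stayed below 1 CPM in every library, at 0.197, 0.0511 and 0.189 CPM in Lgmn KO, against 0.681, 0.416 and 0.542 CPM in WT. The last receptors were close to the limit of detection. Ccr3, of eosinophils, had 0, 3 and 0 counts in Lgmn KO, against 2, 5 and 7 in WT. Ccr9, of gut-homing lymphocytes, had 9, 5 and 11 counts in Lgmn KO, against 8, 7 and 18 in WT, and other annotated genes overlap 21.5% of its exonic bases. Xcr1, of cross-presenting dendritic cells, had 0, 0 and 4 counts in Lgmn KO, against 0, 1 and 0 in WT.

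The WT libraries varied more than the Lgmn KO libraries in 19 of the 26 tested members, where 53.8% of all tested genes did so. The median coefficient of variation over the members was 15.4% in Lgmn KO, against 32.2% in WT, beside 9.59% and 10.8% over all tested genes. Leaving out WT replicate 2 brought the fold changes of Ccl2, Ccl6, Ccl7, Cxcl10 and Ccr2 closer to 0 than leaving out any other library, and hardly moved Cxcl3 (-1.90), Ccl8 (-2.98) or Cx3cr1 (-1.97). All 17 members with an unadjusted p below 0.05 kept their sign in each of the 13 alternative fits.

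**Figure D5:**
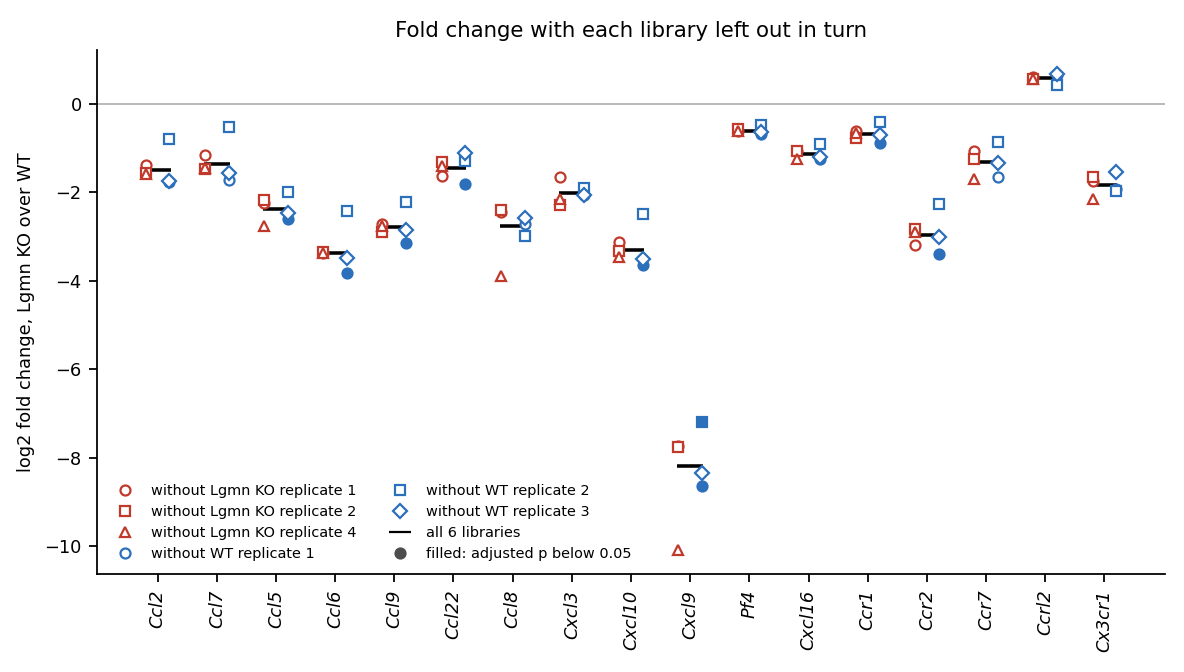
Log2 fold change, Lgmn KO against WT, of the 17 members with an unadjusted p below 0.05, with all 6 libraries (black bars) and with each library left out in turn, where symbols are filled if the adjusted p was below 0.05. Leaving out WT replicate 2 put Ccl6 at -2.42 in place of -3.36, and among these the filled symbols occur without WT replicate 1 and, for Cxcl9, without WT replicate 2.

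The authors' deposited table marks 14 members as lower in Lgmn KO and 0 as higher. Over all genes, 1.96% of the 17476 genes with a q-value are marked lower and 0.452% higher in the authors' deposited table. By its q-value below 0.05 alone, the authors' deposited table has 16 members lower, beside 2.8% of all genes, and 1 higher (Ccrl2), beside 1.01%. Its q-values were far smaller than the adjusted p-values above, with 2.56e-12 for Ccl9, 1.05e-13 for Cxcl9 and 7.68e-08 for Cxcl16 in the authors' deposited table, but the sources used here do not give the test behind them. The 14 hold all 3 members called here, Ccl12 and Cxcr6, which edgeR did not test, and 9 members that it tested and did not call.

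The rest of the pathway held no calls. Of the 18 remaining chemokines, 6 had a count and 3 were tested; 0 passed edgeR's test, and 1 (Cxcl5) had an unadjusted p below 0.05, at a log2 fold change of -1.30. Of the 14 remaining receptors 5 were tested and 0 passed, although DESeq2 and limma with sample weights each called 2 lower. Of 33 genes of receptor signalling and desensitisation, 0 passed, with 16 negative and a median log2 fold change of 0.003. The smallest p there belonged to Rgs1, a brake on G-protein signalling, at 104.5 ± 9.05 CPM in Lgmn KO, against 79.6 ± 3.48 CPM in WT (n = 3 each, with SDs). Its adjusted p was 0.0769 by edgeR. Of 27 regulators of chemokine transcription and mRNA decay, 24 were negative, the median was -0.26, and 0 passed by edgeR while DESeq2 called 10 lower. Irf1, a factor induced by interferon-gamma, was at 12.03, 13.1 and 18.6 CPM in Lgmn KO, against 37.8, 158 and 80.6 CPM in WT (log2 fold change -2.66, adjusted p = 0.0575, edgeR). Zfp36l1, which promotes decay of AU-rich mRNAs, was at 10.5, 14.97 and 12.4 CPM in Lgmn KO, against 25.4, 62.7 and 52.4 CPM in WT (log2 fold change -1.89, adjusted p = 0.0519, edgeR). Nfkbia, the inhibitor that NF-kB induces, was at 26.04, 27.4 and 24.6 CPM in Lgmn KO, against 35.2, 50.8 and 42.3 CPM in WT (log2 fold change -0.72, adjusted p = 0.0634, edgeR). In each of these the groups did not overlap, and as for the interferon-induced chemokines WT replicate 2 was the highest library.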

How the data were processed

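Messenger RNA of sorted cardiac macrophages was measured in 3 Lgmn KO and 3 WT libraries, grouped by title. HISAT2, TopHat and TopHat2 2.0.9 are named in the submitters' processing notes, with the human build hg38; the counter and strand setting were not given in the sources used here. Positions are those of the table, read as GRCm38: GENCODE M21 holds 98.6% of the gene IDs, 80.8% of these at the same position. Per the file headers the deposited table holds raw counts and FPKM per gene and sample, and the authors' log2 fold change, p-value and q-value, which were only described. Counts were filtered with filterByExpr, scaled by TMM and tested with edgeR 4.0.16 in R 4.3.3 (quasi-likelihood, no covariate), with Benjamini-Hochberg adjustment over 12546 genes. Alternatives were DESeq2 1.42.0, limma 3.58.1 voom with sample weights, other scalings, no count filter, a replicate block and each library left out. The procedure was tested on simulated data. Where a symbol had several IDs, the one with most counts was used. Members and lists were chosen with earlier results of these data known. The rule for values per library took members with an unadjusted p below 0.05 and the most abundant of each role, and up to 3 genes of smallest p per pathway list; the other members' values per library, Cx3cl1, Zmynd15, single marker genes, motifs and ratios were added after values were seen. One receptor that the rule for the remaining receptors names is not reported here. The labels name no batch.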

Additional observations from a re-analysis of the deposited data

How the results depend on the processing

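The number of members called lower in Lgmn KO, 3, depended on the method and on single libraries. It was 5 with upper-quartile factors (88 of all 12546 genes) and 8 with limma voom and sample weights (221 of 12546). It was 11 with no filter on low counts (230 of 18457) and 14 with DESeq2's Wald test (503 of 13801). At an adjusted p below 0.1 it was 11. The share of all genes at that threshold was not counted in either direction, so that count cannot be read as particular to the members. With 1 library left out it was 0 to 12, where 3 to 470 of all genes were called lower. DESeq2 and the threshold of 0.1 each added 1 member called higher (Ccrl2), and DESeq2 called 279 of all 13801 genes higher. The members' median log2 fold change ranged from -1.45 to -0.526 with 1 library left out, the last value without WT replicate 2. Members with groups that do not overlap numbered 14 lower and 2 higher under both other scalings of CPM too. Calls in the pathway lists with 1 library left out were 0 to 1 lower for remaining chemokines, 0 to 2 for remaining receptors, 0 to 1 for signalling and 0 to 9 for regulators. DESeq2 called 2 remaining receptors and 10 regulators lower and 3 signalling genes higher, and limma voom 2 remaining receptors and 5 regulators lower. The call of Ccl9 was lost with DESeq2 size factors in edgeR (adjusted p = 0.0504), and that of Cxcl9 with limma voom (0.0509). The cause of these differences was not tested.

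The replicate numbers 1 and 2 occur in both groups, but the labels do not say that they mark a shared animal or day. Deviations of same-numbered libraries correlated at 0.122 and 0.0757, over 2 pairs. With the replicate number as a block, on the 4 libraries that share one or on all 6, 1 member (Cxcl9) was called lower. Of all genes, 27 of 12612 and 30 of 12546 were called lower in these fits.

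Of the 26 tested members, 20 kept their sign in all 13 alternatives. The log2 fold change of Cxcl1 (-0.16) was 0.389 and 0.388 with the replicate block and ranged from -0.59 to 0.21 with 1 library left out. For Cxcl2 (0.03) it was -0.0628 and -0.0633 with the block and -0.111 to 0.341 with 1 library left out, and for Cxcr3 (0.01) -0.0826 and -0.0831 with the block and -0.0968 to 0.125. With 1 library left out it ranged from -0.179 to 0.016 for Cxcl12, -0.461 to 1.77 for Cxcl14 and -0.0014 to 0.315 for Cxcr4. Depth limited the 9 members that were not tested.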
